A study of Mus musculus with 4 samples.

Results

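Transcripts of Ctcf and of 8 genes tied to it by sequence, position or function were followed in the embryonic telencephalon with and without Ctcf. The genes were listed by symbol, with earlier results of these data known. They are Ctcf, its paralog Ctcfl, the non-coding neighbour Gm38250, and 6 DNA-binding or chromatin-remodelling factors described at CTCF sites (Yy1, Zfp143, Maz, Adnp, Chd8 and Atrx). These are 9 of the 48795 genes in the table, and all 9 had enough reads to be tested. The tissue was the telencephalon, a part of the embryonic forebrain, of C57BL/6 mice at embryonic day 14. Both groups carried a floxed Ctcf gene, one flanked by sites at which Cre recombinase cuts. Control animals had the floxed gene with no Cre named in the labels, and Ctcf-null animals also carried NestinCre, which is active in neural progenitors. Each group had 2 libraries, numbered as 2 pairs. Which exons Cre removes and what a pair shares were not given in the sources used here. The labels do not say whether each library is a different embryo. All p-values therefore rest on these samples alone, and their spread may be technical. In fits that keep the pairs, that spread is the one of the differences within pairs, drawn towards the trend over all genes.

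CTCF recognises a long DNA motif with its zinc fingers and stops the ring-shaped cohesin complex as it extrudes loops of chromatin. The anchors formed in this way insulate neighbouring genes from each other and bring distant enhancers to promoters, which in neurons includes promoter choice in the clustered protocadherin genes. CTCFL, also called BORIS, has a closely related zinc finger domain and is made mainly in the male germ line. YY1, ZFP143 and MAZ are further zinc finger factors found at promoters and at loop anchors. CHD8 and ATRX act on nucleosomes, and ADNP is a zinc finger protein that works with the remodeller CHD4. Each of ADNP, CHD8 and ATRX has been described as sharing or competing for CTCF sites.

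Of the 9 genes, 2 fell and 1 rose in Ctcf-null telencephalon. Ctcf, the targeted gene, was 14.1-fold lower, Gm38250 was 7.36-fold higher, and Maz was 1.31-fold lower. The calls of Ctcf and Gm38250 were kept in all 10 alternative fits with the pairs, and that of Maz in 7 of 10. The other 6 genes did not pass the test. The test was limma on log2(normalized read count + 1), with the pair as a block and a Benjamini-Hochberg adjusted p of at most 0.05 over all 22158 tested genes. By this rule 13.7% of all tested genes were called. As shares of all tested genes, 10.1% were called as lower and 3.67% as higher. The median log2 difference was -0.04 over the 9 genes and -0.07 over all tested genes. Control and Ctcf-null values did not overlap in 2 of the 9 genes, Ctcf and Gm38250, against 14.1% of all tested genes. In 5 of the 9 genes the difference had opposite signs in the pairs. Without the block of pairs none of the 9 passed, with a limma adjusted p of 1.00 for each.

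**Figure D1:**
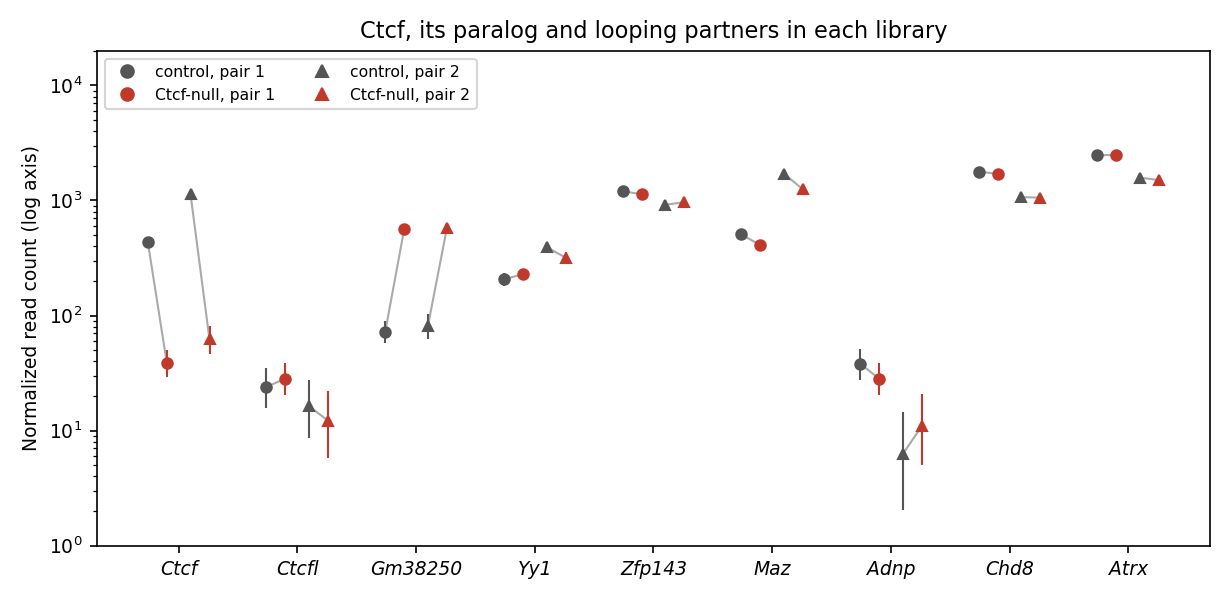
Normalized read count of each gene in each library on a log axis. Circles are pair 1 and triangles pair 2, grey is control and red Ctcf-null, grey lines join the libraries of a pair, and bars are exact 95% Poisson intervals that cover counting error only. Ctcf and Gm38250 are the genes whose control and Ctcf-null libraries stand apart in both pairs, and Maz sits far higher in pair 2 than in pair 1 in both groups.

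The libraries held 25519331 to 43812558 reads. The 10 most abundant genes took 26.0% and 21.9% of the reads in pair 1, and 8.8% and 8.4% in pair 2. Over all tested genes the median absolute log2 difference was 0.20 between genotypes and 0.84 between pairs. Summed over 10 genes each, markers of apical progenitors in Ctcf-null libraries were 0.728 and 0.811 times the control of the pair, and markers of neurons 0.734 and 0.805 times, with 4 of 10 lower in each list. The sums were 1.29 and 1.24 times the control for 12 microglial genes (2 higher), 1.31 and 1.43 times for 8 choroid plexus genes (3 higher), and 0.830 and 0.903 times for 10 endothelial genes (2 lower). Some sums lean on single genes. In control 1 Tubb3 made up 237901.71 of the neuron sum of 331664, and Fabp7 35904.10 of the progenitor sum of 51173. Ttr made up 72063.48 of the choroid plexus sum of 74678. Median log2 differences per gene were -0.20 for neurons, -0.22 for apical progenitors and 0.22 for choroid plexus. Map2 (0.07), Dcx (0.16), Slc1a3 (0.04) and Pax6 (0.21) had positive differences and did not pass in limma. In edgeR 1 gene was higher and 3 were lower in the neuron list, and likewise in the progenitor list. The higher genes there were Dcx (edgeR adjusted p = 0.033) and Pax6 (edgeR adjusted p = 0.02). No gene was called among 6 pericyte genes (sums 0.880 and 0.898 times), 8 red blood cell genes (0.688 and 1.09 times) and 8 meningeal genes (0.989 and 1.04 times). Of 13 mitochondrial transcripts 7 were higher and 3 lower. No marker on these lists was at 0 in all libraries. The part of these shifts in the differences described here was not tested. In whole tissue, fewer cells of a type and less RNA per cell cannot be told apart.

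Ctcf (ENSMUSG00000005698.15, mm10, chr8:105636568-105682922, plus strand) is the targeted gene. Its normalized read count in pair 1 was 436.72 in the control and 38.89 in the Ctcf-null library, and in pair 2 it was 1133.21 and 61.96. Both Ctcf-null libraries lay far below both controls, and the control of pair 2 was the highest library. The group means were 785 ± 492 in controls and 50.4 ± 16.3 in Ctcf-null libraries (SD, n = 2 each). This gave a log2 difference of -3.81 (SE 0.16, 95% interval -4.15 to -3.47, limma adjusted p = 3.3e-12). Ranked by p, Ctcf stood at place 10 of the 22158 tested genes, and it was called in all 10 alternative fits that kept the pairs.

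Some Ctcf reads remained in both Ctcf-null libraries: 55 against the 491 of the control in pair 1, and 51 against 906 in pair 2. The Ctcf-null library held 8.91% of the control's level in pair 1 (95% interval 6.61% to 11.8%) and 5.47% in pair 2 (4.04% to 7.25%). These exact intervals cover counting error only. They overlap slightly, which is not a test of whether the pairs differ. The count is one value for the whole gene, so it does not show whether the remaining reads came from the floxed exons. Nestin sequences drive Cre in neural progenitors and not in microglia or blood cells, and markers of both were detected in all 4 libraries. The part of such cells in the remaining Ctcf reads was not tested.

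Other annotated genes touch the Ctcf locus. In GENCODE M21, which may not be the release the authors used, 370 of the 4860 exon bases of Ctcf (7.61%) are shared with genes on the other strand. They belong to the non-coding gene Gm5914 and to a long transcript of Agrp. Gm5914 had 5 to 13 reads per library, from 4.45 to 16.26 normalized counts. Its higher values were both in pair 2 (log2 difference -0.07, limma adjusted p = 0.95). The processed pseudogene Gm5915 lies within Ctcf without sharing an exon base. Its control and Ctcf-null values were 244.60 and 200.11 normalized counts in pair 1, and 173.86 and 151.86 in pair 2, with a Ctcf-null library just below its control in each pair (log2 difference -0.24, limma adjusted p = 0.28).

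Gm38250 (ENSMUSG00000104168.1, chr8:105566324-105578109, plus strand) is a non-coding transcript. The annotation classes it as antisense, but it lies opposite Agrp and on the same strand as Ctcf. Its start is 70244 bases before that of Ctcf, and 58459 bases separate its end from the start of Ctcf. Its normalized read count went from 72.04 in the control to 562.15 in the Ctcf-null library of pair 1, and from 81.30 to 577.07 in pair 2. The groups did not overlap, and within each group the libraries were close to each other. The means were 76.7 ± 6.55 in controls and 570 ± 10.6 in Ctcf-null libraries (SD, n = 2 each). The Ctcf-null level was 7.80 times the control's in pair 1 and 7.10 times in pair 2. The log2 difference was 2.88 (SE 0.14, 95% interval 2.60 to 3.16, limma adjusted p = 1.4e-11). Gm38250 stood at place 15 by p and, like Ctcf, was called in all 10 alternative fits with the pairs kept.

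The promoter windows of Ctcf and Gm38250, the genes that moved most, are printed here from RefSeq (GRCm38.p6, the mm10 assembly). They span 250 bases before to 50 bases after the start that RefSeq annotates. The window of Ctcf is chr8:105636288-105636587 and that of Gm38250 is chr8:105565930-105566229, both on the plus strand. The window of Gm38250 ends before the GENCODE start of the gene at 105566324, so the 2 annotations place its start differently. Capitals mark matches, on either strand, to the MAZ motif GGGAGGG and the YY1 motif AANATGGC.
Ctcf: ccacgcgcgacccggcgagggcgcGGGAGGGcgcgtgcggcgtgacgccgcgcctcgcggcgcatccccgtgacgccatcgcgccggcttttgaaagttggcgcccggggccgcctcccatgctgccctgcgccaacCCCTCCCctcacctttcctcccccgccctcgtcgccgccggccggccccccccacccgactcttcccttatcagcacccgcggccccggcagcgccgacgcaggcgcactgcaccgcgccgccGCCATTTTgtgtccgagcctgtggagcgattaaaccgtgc
Gm38250: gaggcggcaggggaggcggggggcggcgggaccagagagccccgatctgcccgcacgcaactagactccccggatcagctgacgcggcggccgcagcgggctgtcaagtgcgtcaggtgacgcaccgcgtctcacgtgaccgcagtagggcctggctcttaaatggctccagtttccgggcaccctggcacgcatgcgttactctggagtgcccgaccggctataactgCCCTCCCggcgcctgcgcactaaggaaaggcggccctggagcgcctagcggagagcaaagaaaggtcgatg
The window of Ctcf is 75.3% G and C, with 2 MAZ matches and 1 YY1 match. The Gm38250 window is 67.7% G and C, with 1 MAZ match, and it also covers the annotated start of Atp6v0d1, which runs the other way on the minus strand from 105566047. Neither window holds CNAGNNGGC, the short CTCF core that was searched, or the ZFP143 motif ACTACANNT.

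RefSeq gave 10 such windows for 8 of the 9 genes, with Ctcfl the gene without one. On both strands the CTCF core was found in 4 of the 10 windows, those of Chd8 and Yy1 and both of Maz, against 20.8% of all 32851 windows. The YY1 motif was in 3 windows (Adnp, Atrx and Ctcf) against 6.05%, and the MAZ motif in 5 (Chd8, Ctcf, Gm38250 and both of Maz) against 22.0%. The ZFP143 motif was in 0 of the 10 against 4.16%. Some MAZ matches within a Maz window overlap each other, and no matches overlap in the windows printed above. The 10 windows ran from 50.3% (Atrx) to 87.3% (Maz) G and C, whereas the median over all windows was 52.7%. The shares thus compare windows of unlike base content. The windows of Zfp143 overlap each other and Maz counts with both of its windows, so the 10 are not independent. A match only says that these letters are present.

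The genes next to Ctcf and Gm38250 were chosen as the nearest 3 measured genes on each side. Agrp, which encodes a feeding peptide of the hypothalamus, was the neighbour with the largest difference. It had 14 reads in the control of pair 1 and 89 in the Ctcf-null library (12.45 and 62.93 normalized counts), and 9 and 26 reads in pair 2 (11.26 and 31.59). Its log2 difference was 1.83 (SE 0.34, limma adjusted p = 9.9e-04). Without strand information in the labels, reads from Agrp and from the antisense Gm38250 cannot be told apart where they meet, although the annotated exons of Agrp and Gm38250 share no base.

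Zdhhc1, a palmitoyltransferase gene, had 121.85 normalized counts in the control and 189.50 in the Ctcf-null library of pair 1, and 460.29 and 677.91 in pair 2 (log2 difference 0.60, limma adjusted p = 0.0021). On the other side of Ctcf, the telomere protein gene Acd went from 1213.20 to 828.02 in pair 1 and from 4143.85 to 2733.49 in pair 2 (-0.58, limma adjusted p = 2.1e-05). Both moved by less than Gm38250, and in both the libraries overlap between groups because pair 2 was the higher pair. Gm38384, a transcript of uncertain status just before Ctcf, had 25 control and 22 Ctcf-null reads in pair 1, and 22 and 4 in pair 2 (-1.39, limma adjusted p = 0.042). Its log2 difference was -0.49 in pair 1 and -2.28 in pair 2, and its call was kept in 3 of 9 alternative fits with the pairs. The pseudogene RP23-410B24.5 passed at -0.34 (limma adjusted p = 0.045), a call kept in 4 of 10. Atp6v0d1, Tppp3, Fam65a and Rltpr did not pass, with log2 differences of -0.19 to 0.19.

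Within 500000 bases of Ctcf, 48 other genes were tested, of which 2 were higher and 7 lower. This is 18.8%, beside the 13.7% of all tested genes. Their median log2 difference was -0.08, and their range, -1.39 to 1.83, stayed inside the values of Ctcf and Gm38250. The number of lower genes, and the gap to all genes, changed with the scaling and the tool. With TMM factors edgeR called 2 higher and 4 lower (12.5%, beside 11.9% of all genes), and limma called 2 and 2 (8.33%, beside 10.4%). Upper-quartile factors gave 2 and 1 (6.25%, beside 10%), DESeq2 2 and 1 (6.25%, beside 3.75%), and the GC correction 2 and 3 (10.4%, beside 11.7%).

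**Figure D2:**
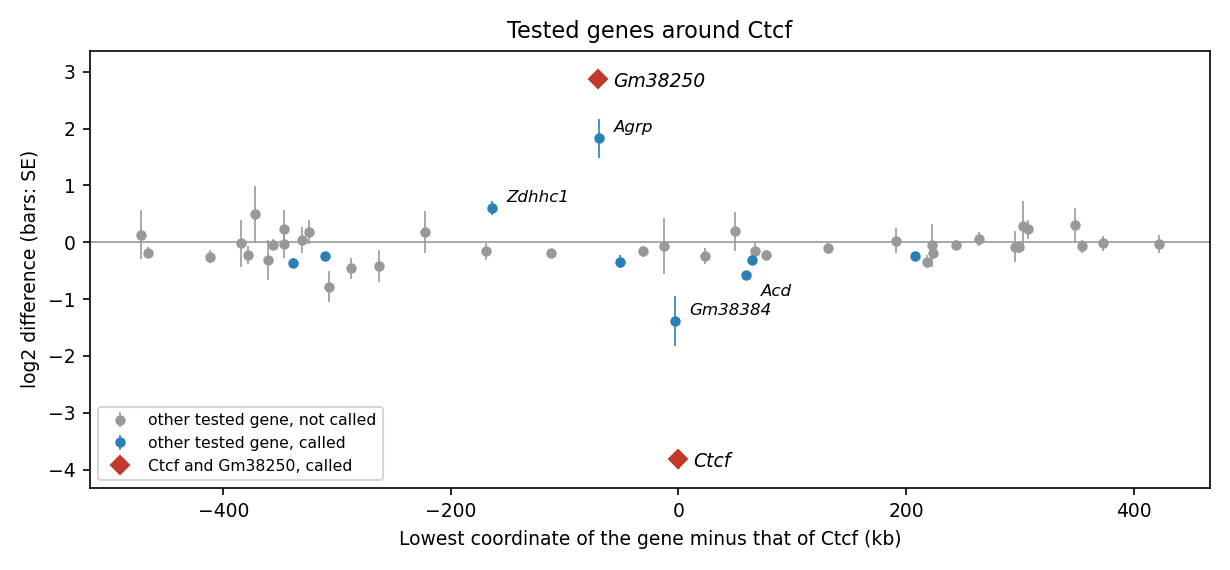
log2 difference (Ctcf-null minus control) with its SE for the tested genes around Ctcf, plotted by the distance in kb between the lowest coordinate of the gene and that of Ctcf. Red diamonds are Ctcf (-3.81) and Gm38250 (2.88), blue points are other genes with an adjusted p of at most 0.05, and grey points are genes that did not pass; most neighbours lie near 0.

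The genes with the most similar pattern were taken by the distance between log2 differences in pair 1 and pair 2, over these 2 pairs only. For Ctcf they were the long non-coding A330048O09Rik (distance 0.86, log2 differences -2.60 and -4.08), the protocadherin gene Pcdhb9 (1.01, -2.75 and -3.45) and the neuropeptide gene Sst (1.18, -3.34 and -3.00). Ctcf itself had -3.46 and -4.17. For Gm38250, with 2.95 and 2.81, they were Zcwpw2 (0.24, 2.71 and 2.77), the nucleotide kinase gene Cmpk2 (0.30, 3.25 and 2.80) and the meiotic recombination gene Mnd1 (0.31, 3.25 and 2.87). These genes were picked for their values, so no test is given.

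Ctcfl (ENSMUSG00000070495.11, chr2:173093609-173119525, minus strand), the paralog, was near the lower end of what these libraries could measure. Pair 1 held 27 control and 40 Ctcf-null reads (24.01 and 28.28 normalized counts), and pair 2 held 13 and 10 (16.26 and 12.15). Higher and lower values followed the pair, and the groups overlapped. The log2 difference was -0.08 (SE 0.36, 95% interval -0.83 to 0.67, limma adjusted p = 0.92). This interval is wide and holds both a fall and a rise. It is not adjusted for the number of genes tested, so its bounds are not a limit of detection. The antisense gene Ctcflos shares 171 exon bases with Ctcfl and went from 32.91 to 62.93 normalized counts in pair 1 and from 11.26 to 17.01 in pair 2 (log2 difference 0.73, limma adjusted p = 0.14).

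Maz (ENSMUSG00000030678.7, chr7:127022130-127027037, minus strand) encodes a zinc finger factor that binds G-rich promoters and has been described as insulating beside CTCF. Control and Ctcf-null were at 507.87 and 408.00 normalized counts in pair 1, and at 1706.07 and 1245.26 in pair 2. The Ctcf-null library was the lower one in both pairs, but the groups overlapped because both libraries of pair 2 exceeded both of pair 1. The level was 80.3% of the control's in pair 1 (counting interval 71.4% to 90.4%) and 73.0% in pair 2 (67.2% to 79.2%). The log2 difference was -0.38 (SE 0.09, 95% interval -0.57 to -0.20, limma adjusted p = 0.0066). The call was kept in 7 of 10 alternative fits with the pairs. It was lost in DESeq2 (adjusted p = 0.17), with upper-quartile scaling in limma (0.054) and after a correction for GC content, where the log2 difference was -0.13 (limma adjusted p = 0.40).

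Yy1 (ENSMUSG00000021264.11, chr12:108792973-108820148, plus strand) encodes a factor that can pair with itself to join enhancers and promoters. Pair 1 had 206.35 normalized counts in the control and 228.40 without Ctcf, and pair 2 had 392.75 and 318.30. The Ctcf-null library was the higher one in pair 1 and the lower one in pair 2 (log2 differences 0.15 and -0.30). Over both pairs the log2 difference was -0.08 (SE 0.13, 95% interval -0.35 to 0.20, limma adjusted p = 0.76).

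Zfp143 (ENSMUSG00000061079.14, chr7:110061217-110095394, plus strand) encodes an activator bound at many promoters. Its control and Ctcf-null levels were 1204.30 and 1133.49 normalized counts in pair 1, and 916.83 and 967.05 in pair 2. The Ctcf-null libraries lay between the controls. Over both pairs the log2 difference was -0.01 (SE 0.09, 95% interval -0.18 to 0.17, limma adjusted p = 0.98).

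Chd8 (ENSMUSG00000053754.13, chr14:52198151-52257780, minus strand) encodes a nucleosome remodeller, and its human counterpart is a gene of autism risk. Its normalized read count was 1782.44 (control) and 1699.18 (Ctcf-null) in pair 1, against 1069.42 and 1056.95 in pair 2. Within each pair the libraries were close, and pair 1 was the higher pair in both groups. The genotypes differed by -0.04 on the log2 scale (SE 0.08, 95% interval -0.21 to 0.12, limma adjusted p = 0.78).

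Atrx (ENSMUSG00000031229.16, chrX:105797615-105929403, minus strand) encodes a remodeller that works with DAXX to place the histone variant H3.3 in heterochromatin. In pair 1 the control had 2461.98 normalized counts and the Ctcf-null library 2494.67, and in pair 2 they had 1577.24 and 1502.81, with pair 1 again above pair 2 and the genotypes close. Their log2 difference was -0.03 (SE 0.07, 95% interval -0.18 to 0.13, limma adjusted p = 0.87).

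Adnp (ENSMUSG00000051149.15, chr2:168180986-168207112, minus strand) encodes the zinc finger subunit of ChAHP, a complex with CHD4 and HP1 that competes with CTCF for sites. Reads numbered 43 in the control and 40 in the Ctcf-null library of pair 1 (38.25 and 28.28 normalized counts), and 5 and 9 in pair 2 (6.25 and 10.93). The order followed the pair, and the difference changed sign between pairs. The log2 difference was 0.15 (SE 0.39, 95% interval -0.68 to 0.97, limma adjusted p = 0.86). Its low level has to be read with the annotation. In GENCODE M21, 4393 of the 5350 exon bases of Adnp (82.1%) are shared on the same strand with the read-through gene Gm20716, which is listed at 0 in all 4 libraries. Reads over shared bases may therefore be missing from both rows, and the level of Adnp is not comparable with that of other genes.

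**Figure D3:**
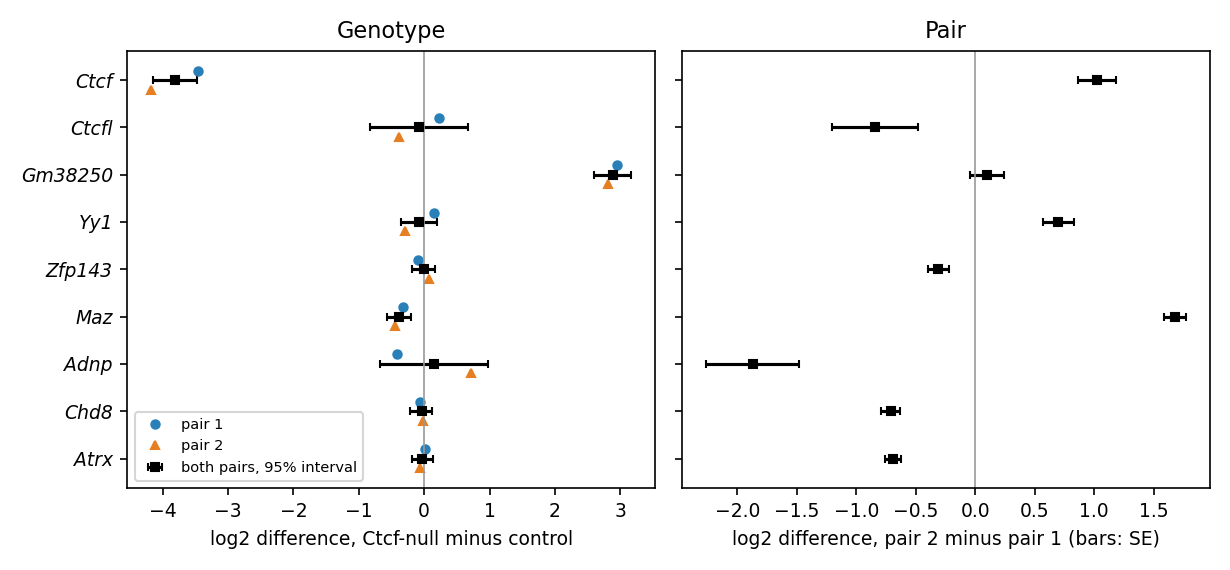
log2 differences of the 9 genes. The left panel gives Ctcf-null minus control, with squares and bars for both pairs together and their 95% interval, blue circles for pair 1 and orange triangles for pair 2; the right panel gives pair 2 minus pair 1 with its SE. Ctcf and Gm38250 stand apart on the left, whereas on the right most of the genes differ from 0 and Gm38250 does not pass.

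To set levels of different genes side by side, counts were divided by merged exon length, giving normalized counts per kb, and Adnp was left out. By the mean of the controls Maz was at 372 ± 284 and Zfp143 at 304 ± 58.7, followed by Ctcf at 161 ± 101 (SD, n = 2). Atrx (92.8 ± 28.6), Chd8 (86.3 ± 30.6) and Gm38250 (69.2 ± 5.94) came next, then Yy1 (46.7 ± 20.5) and Ctcfl (6.25 ± 1.70). Neighbours in this order from Maz to Yy1 differed by less than the sum of their SDs, and only Yy1 and Ctcfl were further apart than that. The order of the controls also turned between pairs. Control 1 had Zfp143 (346) above Maz (171), and Atrx (113) and Chd8 (108) above Ctcf (89.9), whereas control 2 had Maz (573) above Zfp143 (263) and Ctcf at 233. In Ctcf-null libraries Gm38250 was the highest of these 8 genes at 514 ± 9.90, and Ctcf was at 10.3 ± 3.32.

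In the pair term of the same fit, 8 of the 9 genes were called, beside 73.4% of all tested genes. Maz (log2 difference, pair 2 minus pair 1, 1.68), Ctcf (1.02) and Yy1 (0.70) were higher in pair 2. Adnp (-1.87), Ctcfl (-0.84), Chd8 (-0.71), Atrx (-0.69) and Zfp143 (-0.31) were lower. The values of Adnp (5 to 43 reads per library) and Ctcfl (10 to 40) rest on few reads, and most exon bases of Adnp are shared with Gm20716. Gm38250 did not pass (0.10, SE 0.14, limma adjusted p = 0.49). The pair term for Ctcf mixes both groups: control 2 was 2.59 times control 1, and Ctcf-null 2 was 1.59 times Ctcf-null 1. Transcript GC content ran from 40.3% for Atrx to 63.3% for Maz. Across 22020 tested genes, which are not independent and share these libraries, GC content correlated with the pair difference at r = 0.41 (Spearman's rho 0.38) and with the genotype difference at r = -0.13 (rho -0.16).

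The partners of these genes were then counted over 9 lists of complexes and relatives. Outside the 9 genes, 76 of 79 listed genes were tested, of which 2 were higher and 12 lower in Ctcf-null telencephalon. This is 18.4%, beside the 13.7% of all tested genes, and their median log2 difference was -0.10, beside -0.07. Both the balance and the gap depend on the scaling and the tool. With upper-quartile factors 4 were higher and 3 lower (9.21%, beside 10% of all genes), and with TMM factors in limma 3 and 5 (10.5%, beside 10.4%). In edgeR with TMM factors 3 were higher and 7 lower (13.2%, beside 11.9%), and in DESeq2 1 and 3 (5.26%, beside 3.75%). The same holds for all genes, where 26.7% of calls were higher, against 40.2% in edgeR with TMM factors, 41.6% in limma with TMM factors and 57.6% with upper-quartile factors.

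In the YY1 family and INO80 complex 1 of 13 tested genes was lower, the ATPase gene Ruvbl2 (from 1563.64 to 1211.98 normalized counts in pair 1 and from 6810.53 to 5678.38 in pair 2, log2 difference -0.31, limma adjusted p = 0.0046). In edgeR the subunit gene Ino80b was also called as lower (adjusted p = 0.017), which limma did not call (-0.37, adjusted p = 0.36). None of 3 relatives and partners of ZFP143 passed in limma, where the cofactor gene Hcfc1, the row with the highest mean count, had -0.13 (adjusted p = 0.40). Thap11, which encodes a zinc finger partner of HCFC1, was called as lower in edgeR (adjusted p = 0.034) and not in limma (-0.34, adjusted p = 0.079). None of 4 MAZ-like factors passed in limma or edgeR, with Vezf1 at -0.05 (limma adjusted p = 0.74). Patz1 was lower in both pairs (-0.28 and -0.24) and came closest, at -0.26 (limma adjusted p = 0.071). Zfp148 had -0.16 and Zfp281 0.02. Maz was thus the single called gene of its list of 5, which does not show that its fall was particular to it.

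Among remodellers, Chd3 of the NuRD complex was the 1 called gene of 8 CHD genes other than Chd8 (-0.35, limma adjusted p = 0.0045). In edgeR Chd7 was called as higher as well (adjusted p = 0.030), which limma did not call (0.21, adjusted p = 0.085). Chd4, the catalytic partner of ADNP, had 0.00. In ChAHP and HP1, Cbx3 was the 1 called gene of 5 (-0.21, limma adjusted p = 0.028), and edgeR did not call it (adjusted p = 0.15). In the list of ATRX, DAXX and H3.3, 2 of 9 were lower. H3f3a, which encodes H3.3, went from 23153.06 to 17346.04 normalized counts in pair 1 and from 26625.48 to 20261.87 in pair 2 (-0.41, limma adjusted p = 8.1e-05). Asf1a, a histone chaperone gene, had -0.49 (limma adjusted p = 0.0015). Daxx did not pass (-0.16, limma adjusted p = 0.24). Of 13 ISWI genes 4 were lower and 1 higher. The clearest were Baz1a (-0.68, limma adjusted p = 5.0e-04) and Smarca1, which encodes the ISWI ATPase SNF2L (0.46, limma adjusted p = 0.0029). Rbbp4 had -0.20, Pole3 -0.22 and Rsf1 -0.28, and edgeR called none of these last 3. H3f3a, Cbx3 and Npm1 have near-identical processed pseudogenes that could take part of their reads, so their values are uncertain.

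Cohesin, the ring complex that CTCF stops, had 1 called gene of 10. Stag1, which encodes the SA1 subunit, went from 866.32 to 1234.61 normalized counts in pair 1 and from 742.97 to 1286.56 in pair 2. Both Ctcf-null libraries exceeded both controls (log2 difference 0.65, SE 0.09, limma adjusted p = 4.4e-05), and the gene was called in all 10 alternative fits with the pairs. Of 12 other proteins reported at CTCF sites 3 were lower, Top2a (-0.25), Parp1 (-0.24) and Npm1 (-0.19), with limma adjusted p of 0.020, 0.044 and 0.035, and edgeR called none of them.

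**Figure D4:**
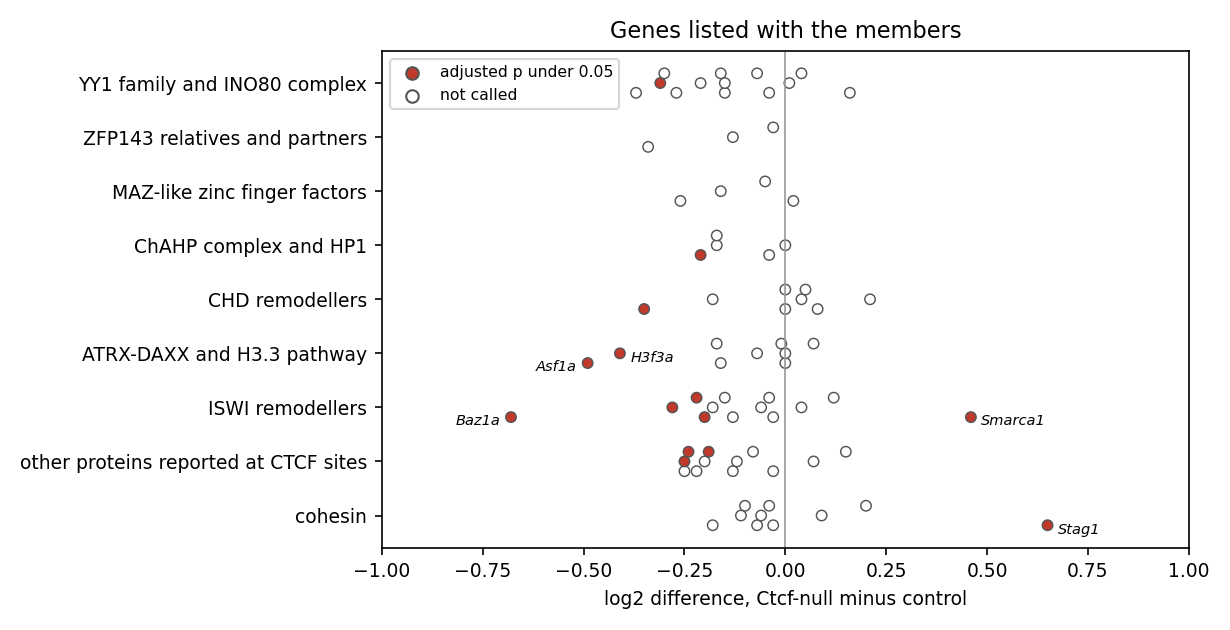
log2 difference (Ctcf-null minus control) of the tested genes of each list, without the 9 genes themselves. Filled points have an adjusted p of at most 0.05 in limma with the pairs as a block, and open points did not pass. Stag1 (0.65) and Smarca1 (0.46) lie to the right and Baz1a (-0.68), Asf1a (-0.49) and H3f3a (-0.41) to the left, while most genes lie between these.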

How the data were processed

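The authors deposited 1 table of 48795 genes with normalized read counts per library, a signal not divided by gene length, and with log2 fold changes per pair, per the file headers. STAR 2.5.3, DESeq2 and mm10 are named in the submitters' processing notes. The counting tool, the annotation used for counting, strand and molecular identifiers were not given in the sources used here. Tissue was kept in RNAlater and copied with a Clontech SMART kit, per the labels' protocols.

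Nearly all nonzero values (99.973% to 99.990% per library) were whole multiples of 1 read (tolerance 0.005), so reads were recovered and edgeR 4.0.16 and DESeq2 1.42.0 were run on them as alternatives. They called 2643 and 832 genes. In the main test, limma 3.58.1 (R 4.3.3) with a mean-variance trend was fitted to log2(value + 1) of the 22158 genes kept by filterByExpr, with pair and genotype as terms. On this scale the change of low genes is understated. The fit has 1 residual degree of freedom and 18.1 prior degrees of freedom. The authors' deposited log2 fold changes of the pairs were recomputed within 0.008.

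The libraries were paired by number, since the series' design names pairs. The deviations from group means correlated at 0.92 between the libraries of a pair. With 2 libraries per group these deviations mirror each other. The value is therefore the same for both pairs by construction, and the pairs do not back each other up. Controls differed by a chi-square of 525.7 per degree of freedom and Ctcf-null libraries by 402.4, so none was counted as a repeat. Intervals cover counting error only, except those of the fit.

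The genes and lists were chosen with earlier results of these data known. Named were the 9 genes, the 3 nearest measured genes on each side of Ctcf and Gm38250, the 3 genes nearest to each in both pair differences, and per list the called genes, at most 4 by smallest p, or else the gene with the highest mean count. Rsf1, Chd4, Daxx, Ino80b, Thap11, Chd7, Patz1, Zfp148 and Zfp281, and the cell type markers given singly, were named in addition after their values were seen. Positions and exon lengths come from GENCODE M21 on GRCm38 (mm10), promoters from RefSeq.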

Additional observations from a re-analysis of the deposited data

How the results depend on the processing

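The calls rest on the pairing. Without the replicate block limma called 0 of 22158 genes (170 at an unadjusted p under 0.05) and 0 of the 9 members of the set, with adjusted p of 1.00 for Ctcf (SE 0.65), Gm38250 (SE 0.37) and Maz (SE 0.90). With the replicate block DESeq2 called 832 genes, against 3041. The other alternatives with the block stayed within 1.5 times. Leaving out each library in turn, in fits without the block in which the lone library is assumed to vary like the other group, gave 0 to 2 genes and 0 to 0 members. Ctcf then ranged from -4.50 to -3.13 and Gm38250 from 2.79 to 2.97. Maz ranged from -1.26 to 0.49 and reversed without control 2 (0.49) and without Ctcf-null 1 (0.42), fits that set libraries of different pairs against each other. With the pair as the only term, 5 members differed between pairs, against 8. Upper-quartile scaling moved the median log2 difference of all genes from -0.07 to 0.04. The GC correction, chosen after seeing the data, called 2580 genes and 2 members. Low read numbers limit Ctcfl and Adnp, with 5 to 43 reads per library. For Adnp the exon bases shared with Gm20716 may be a reason, so its count is not a measure of depth alone.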
